A study of Mus musculus with 2 samples.

Results

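Transcripts of 7 genes that mark cytotoxic lymphocytes (Nkg7, Ccl5, Gzma, Gzmb, Prf1, Klrd1 and Il2rb) were followed through single-cell RNA-seq of mouse bone marrow. The genes were taken by symbol, and all 7 were found among the 32285 genes of the count table. The measure was the unique molecular identifier (UMI), a tag that counts each captured transcript once, in 1 library per genotype. DKO cells came from a VavCre:Ddx41 fl/fl, cGAS-/- mouse, with the RNA helicase Ddx41 deleted in blood-forming cells and the DNA sensor cGAS in every cell. The control, labelled WT, came from a littermate that carried the floxed Ddx41 alleles without VavCre and had intact cGAS. Mice were 2 months old, and VavCre is active in blood-forming cells and in endothelium. Femoral marrow was used without sorting. Since each genotype was a single library, no test between genotypes was possible, and all intervals given are 95% intervals for counting error only.

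Cytotoxic lymphocytes, chiefly natural killer (NK) cells and CD8 T cells, kill by releasing granules onto a target cell. Prf1 encodes perforin, which opens pores in the target membrane, and Gzma and Gzmb encode granzymes, serine proteases that enter through them. Nkg7 encodes a membrane protein of these granules, and Ccl5 a chemokine that is stored and secreted by the same cells. On the surface, Klrd1 (CD94) pairs with NKG2 receptors that read a nonclassical MHC molecule, and Il2rb is the receptor subunit shared by interleukin-2 and interleukin-15, the latter a survival factor for NK cells. In mice, NK cells develop in the marrow, while most T cells found there have arrived from the thymus and the circulation.

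The 7 genes lie on 7 chromosomes, and none overlaps another annotated gene (GRCm38, GENCODE M21). Nkg7 spans chr7:43437073-43438249 on the + strand, Prf1 chr10:61297833-61304680 on the + strand, Gzma chr13:113093825-113100981 on the - strand and Gzmb chr14:56258838-56262260 on the - strand. Ccl5 spans chr11:83525778-83530518 on the - strand, Klrd1 chr6:129591782-129598775 on the + strand and Il2rb chr15:78479256-78495271 on the - strand.

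Promoters are shown for Nkg7, Prf1, Gzma and Gzmb, the 4 of the 7 genes held by the promoter table used, to set the upstream sequences of the granule genes beside their shared cell types. They come from RefSeq (GRCm38.p6, 300 bases, 5′ to 3′ on the gene's strand, from 250 bases before the start to 50 after it). The windows are chr7:43436888-43437187 (+) for Nkg7, chr10:61297586-61297885 (+) for Prf1, chr13:113100932-113101231 (-) for Gzma and chr14:56262285-56262584 (-) for Gzmb. Capitals mark matches, on either strand, to the letters of the T-box motif GGTGTGA, the RUNX motif TGTGGT or the STAT motif TTCNNNGAA. A match on the opposite strand shows as its reverse complement, and no matches overlapped.
Nkg7: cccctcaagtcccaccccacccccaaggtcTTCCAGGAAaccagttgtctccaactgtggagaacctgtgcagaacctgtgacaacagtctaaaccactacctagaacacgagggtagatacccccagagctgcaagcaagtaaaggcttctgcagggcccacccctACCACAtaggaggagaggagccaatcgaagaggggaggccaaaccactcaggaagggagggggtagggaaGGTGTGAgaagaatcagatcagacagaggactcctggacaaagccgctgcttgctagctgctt
Prf1: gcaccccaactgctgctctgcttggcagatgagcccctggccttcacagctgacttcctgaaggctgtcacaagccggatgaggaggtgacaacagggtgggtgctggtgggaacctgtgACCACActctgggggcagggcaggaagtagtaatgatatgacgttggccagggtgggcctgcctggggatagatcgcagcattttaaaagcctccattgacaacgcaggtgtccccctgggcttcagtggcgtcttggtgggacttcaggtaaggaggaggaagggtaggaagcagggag
Gzma: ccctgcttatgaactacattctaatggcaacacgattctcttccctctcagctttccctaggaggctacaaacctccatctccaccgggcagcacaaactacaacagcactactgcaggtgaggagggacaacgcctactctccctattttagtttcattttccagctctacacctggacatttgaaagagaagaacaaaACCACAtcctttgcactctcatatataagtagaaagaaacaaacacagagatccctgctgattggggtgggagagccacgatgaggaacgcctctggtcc
Gzmb: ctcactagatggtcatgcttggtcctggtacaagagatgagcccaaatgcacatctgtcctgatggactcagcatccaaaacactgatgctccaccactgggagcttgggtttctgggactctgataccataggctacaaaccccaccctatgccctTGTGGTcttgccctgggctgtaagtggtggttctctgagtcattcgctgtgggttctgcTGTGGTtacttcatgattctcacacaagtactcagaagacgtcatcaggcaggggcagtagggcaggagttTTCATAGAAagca

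All 4 windows held TGTGGT, as did 16.8% of the 32851 promoters of the same length. It lay 83 bases before the start in Nkg7, 130 in Prf1, 50 in Gzma, and 93 and 34 in Gzmb. Distances are from the RefSeq start, which differs from the GENCODE spans above for some genes. The Gzmb window lies outside the span of Gzmb, and the Nkg7 start lies inside the span of Nkg7. GGTGTGA was in Nkg7 alone, 13 bases before the start, against 3.98% of all promoters. TTCNNNGAA was in Nkg7, before the start, and in Gzmb, after it, against 8.30%. These are matches of letters, not measured binding sites.

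After cell calling and filtering, 18712 control cells with 119329351 UMIs and 13727 DKO cells with 114788603 UMIs remained, with medians of 4876.5 and 6904 UMIs a cell. Ddx41 was at 20.3 CPM, UMIs of a gene per 1000000 UMIs of the class, in control and 8.01 CPM in DKO cells, and Cgas at 13.5 and 7.25 CPM. Cgas RNA was thus still counted in the knockout, and where the counted 3′ ends lie relative to the deleted part was not given in the sources used here. Over all cells Ddx41 was at log2 -1.34 (-1.45 to -1.23) in DKO. In NK-like cells it had 8 and 3 UMIs, with an interval of -3.76 to 0.85. In T-like cells it was at 26.8 and 22.5 CPM (44 and 23 UMIs, log2 -0.22), with an interval of -1.05 to 0.51 that included 0. The difference over all cells also depends on the mix of classes. Class by class Ddx41 was at log2 -0.65 in cKit+ progenitor-like, -1.02 in B-like and -1.27 in granulocyte-monocyte progenitor-like cells. The T-like interval took in the cKit+ and B-like values but not the last. The libraries shared 75 cell barcodes, none of them NK-like or T-like in both.

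Clusters were made without the 7 genes and the other cytotoxic pathway genes, and were named from markers. NK-like cells numbered 87 in control and 51 in DKO, with 344749 and 299480 UMIs in all. In them 10 of 10 NK markers reached 20 CPM, summing to 6964 and 6795 CPM, against 1129 and 1271 CPM in T-like cells. The 3 Cd3 genes, the signalling chains of the T cell receptor, summed to 145 and 144 CPM in NK-like cells and to 2145 and 1859 CPM in T-like cells. T-like cells numbered 411 in control and 190 in DKO, with 1642851 and 1023898 UMIs, and 11 of 11 T markers reached 20 CPM in them. A further 95 control and 34 DKO lymphoid cells carried markers of erythroid cells, B cells or neutrophils as well and were kept apart. ILC2-like cells (type 2 innate lymphoid cells, which do not kill) numbered 16 and 38.

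Each of the 7 genes had its highest CPM in NK-like cells in both libraries. For Gzmb in DKO the lead was not beyond the counting interval, since basophil or mast-like cells reached 80.1 CPM (61.7 to 102). In control NK-like cells Nkg7 was at 2242 CPM (2087 to 2406, 773 UMIs), Gzma at 3382 CPM (3191 to 3582, 1166 UMIs), Gzmb at 168 CPM (128 to 217, 58 UMIs) and Prf1 at 252 CPM (202 to 311, 87 UMIs). Ccl5 was at 9468 CPM (9146 to 9798, 3264 UMIs) there, Klrd1 at 1079 CPM (972 to 1194, 372 UMIs) and Il2rb at 989 CPM (887 to 1100, 341 UMIs). Leaving aside the lymphoid cells kept apart, T-like cells came next for all 7 genes in control and for all but Gzmb in DKO, with intervals that did not overlap those of NK-like cells. In B-like cells, which use none of these genes for killing, the 7 genes were between 0 and 4.45 CPM in control and between 0 and 1.29 CPM in DKO.

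**Figure D1:**
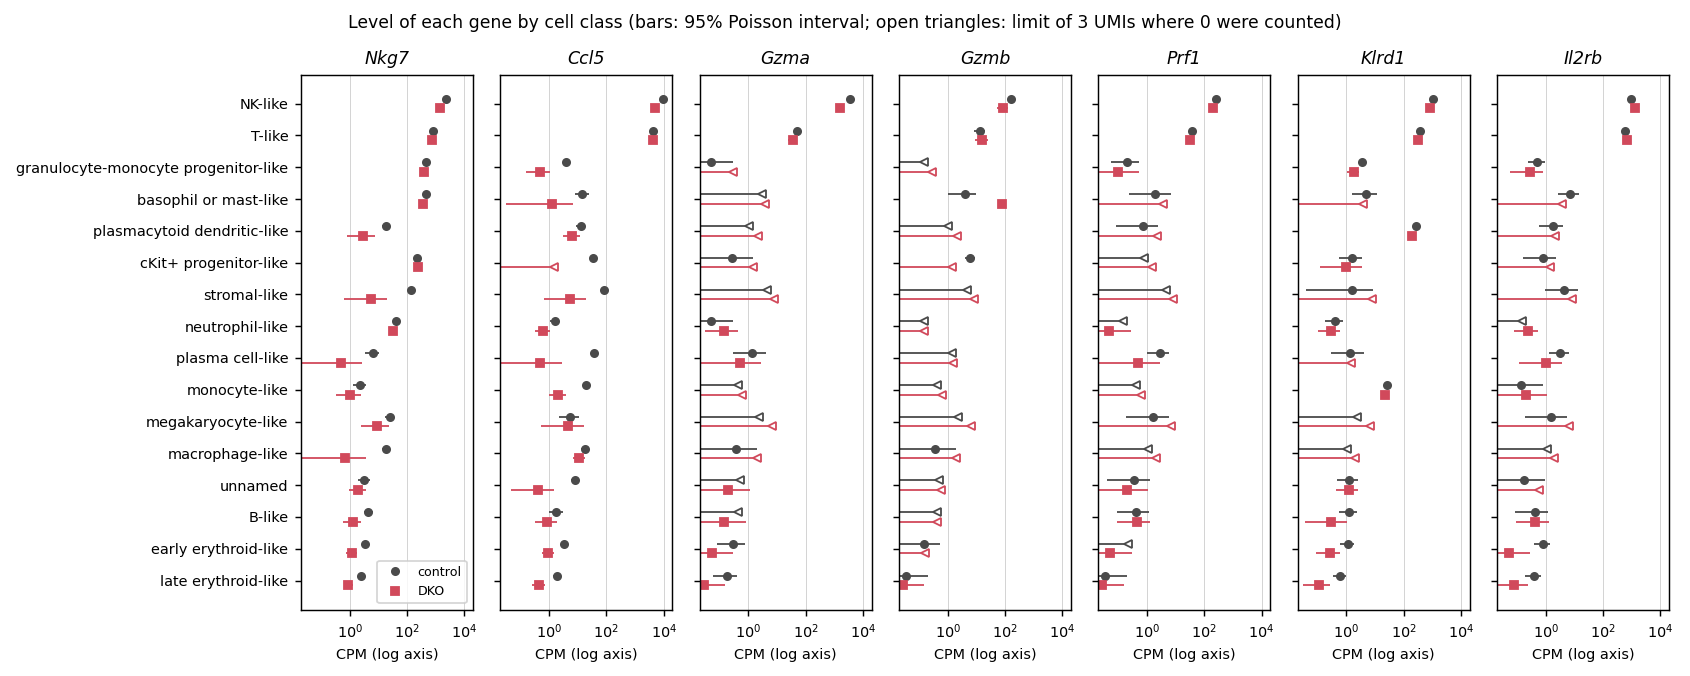
Level of each of the 7 genes (panels, CPM on a log axis) in each cell class with at least 50 cells in both libraries. Circles are control and squares DKO, bars are 95% Poisson intervals, and open triangles stand at the limit of 3 UMIs where 0 were counted. NK-like cells are at the right in every panel, at 9468 and 5116 CPM for Ccl5, while Nkg7 also stands out in granulocyte-monocyte progenitor-like cells (466 and 403 CPM) and Klrd1 in plasmacytoid dendritic-like cells (268 and 191 CPM).

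Within each library, the granule proteases and perforin separated NK-like from T-like cells most. Gzma was 66.2-fold higher in NK-like cells of control (log2 6.05, 5.74 to 6.40) and 44.9-fold higher in DKO (log2 5.49, 5.04 to 6.06). Gzmb was 12.2-fold and 5.23-fold higher, and Prf1 6.76-fold and 6.34-fold higher. Those 3 genes passed 4-fold in each library, against 2.57% of the 6929 genes of at least 20 CPM in control and 2.44% of 7175 in DKO. The other 4 genes, for the chemokine, the receptors and Nkg7, were closer between the classes. Klrd1 was 2.86-fold and 2.56-fold higher in NK-like cells, Nkg7 2.71-fold and 1.91-fold, Il2rb 1.75-fold and 1.96-fold, and Ccl5 2.16-fold and 1.25-fold. All 14 intervals lay above 0. For Ccl5 in DKO the direction turned (log2 -0.40) when only cells above the UMI threshold of their library were used, which left 17 NK-like and 60 T-like DKO cells. With T cells taken by a marker gate, 63.0% of the 351 DKO cells lay outside the lymphoid clusters, and the median log2 ratio over the 7 genes went from 1.36 to 3.20 in DKO and from 1.52 to 2.04 in control.

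Cell by cell, the genes differed in how evenly they were spread. Nkg7 had 0 to 39 UMIs a control NK-like cell with a median of 8, and 0 to 21 with a median of 7 in DKO. It was seen in 97.7% of control and 96.1% of DKO NK-like cells. After thinning every cell to 1500 UMIs those shares were 90.5% and 78%, and in B-like cells the unthinned shares were 1.40% and 0.673%, at median depths of 2641 and 3709.5 UMIs against 3853 and 5430 in NK-like cells. Ccl5 ranged from 0 to 170 UMIs a cell with a median of 30 in control, and from 0 to 128 with a median of 24 in DKO. Both genes were thus nearly general among NK-like cells.

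Gzma was uneven. It ranged from 0 to 80 UMIs in control NK-like cells with a median of 5, and from 0 to 48 with a median of 1 in DKO, and 71.3% and 51.0% of cells had a UMI. Gzmb had a median of 0 and a highest value of 7 in control and 8 in DKO, with a UMI in 32.2% and 21.6% of cells. Prf1 had a median of 1 in both and a highest value of 8 and 6. The receptors were general again, with Klrd1 in 93.1% and 88.2% and Il2rb in 96.6% and 98.0% of NK-like cells. Median UMIs a cell were 4 and 4 for Klrd1 and 3 and 7 for Il2rb, Il2rb being the gene whose median was higher in DKO. No NK-like or T-like cell is a replicate, and these spreads describe 1 library each.

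Members occurred together far more often in NK-like than in T-like cells. With each cell thinned to 1500 UMIs, 68 of 84 control NK-like cells (81.0%, 70.9% to 88.7%) and 33 of 50 DKO NK-like cells (66.0%, 51.2% to 78.8%) had a UMI of at least 4 of the 7 genes. In T-like cells the counts were 53 of 382 (13.9%) and 27 of 184 (14.7%). All 7 were seen in 5 control and 2 DKO NK-like cells and in no T-like cell at that depth. Where Gzmb was seen, Gzma usually was too, in 13 of 14 control and 4 of 5 DKO NK-like cells. Prf1 was accompanied by Gzma in 24 of 28 and 9 of 13. Gzma was itself common, and was seen without Gzmb in 39 control and 18 DKO NK-like cells. Whether the overlaps exceed those of unrelated genes at these frequencies was not tested.

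The NK-like cells formed 2 clusters, and Gzma marked the split although it was not used to make them. The larger held 77 control and 35 DKO cells and was led by Klra4, Klra8 and Klri2, members of the Ly49 and related NK receptor families. The smaller held 10 control and 16 DKO cells and was led by Klrb1b, Cxcl9 and Gzmc. Of 10 NK markers, 4 were at 0 in it in control and 2 in DKO, against 0 in the larger. The list summed to 5253 and 4828 CPM in the smaller and 7213 and 7707 CPM in the larger. At resolution 1.5 the NK-like cluster with Klrb1b and Cxcl9 among its leading genes held 13 control and 27 DKO cells. Il23r and Cd163l1, which led a T-like cluster at resolution 1, were among its leading genes too. Of 7 macrophage markers, 4 were raised in the smaller cluster against the other lymphoid cells, and the list summed to 365 CPM in control (16 UMIs in 2 of 10 cells) and 232 CPM in DKO (22 UMIs in 5 of 16 cells), with 1 marker at 0 in each, against 63.1 and 9.77 CPM in the larger cluster, with 1 and 5 at 0. Their part in the differences between the clusters was not tested. In the smaller cluster Gzma had 0 UMIs in both libraries, against 3874 CPM in the larger cluster of control and 2370 CPM of DKO. That makes Gzma at least 56.5-fold higher in the larger cluster of control and at least 74.9-fold higher in that of DKO, taking 3 UMIs as the limit of a count of 0. Gzmb had 0 and 2 UMIs in the smaller cluster, and Prf1 3 and 4.

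Il2rb did not follow Gzma. It was at 1096 and 1307 CPM in the smaller and 974 and 1295 CPM in the larger cluster of control and DKO, and both intervals of the log2 difference included 0 (-0.62 to 0.30 in control, -0.33 to 0.31 in DKO). Nkg7, Ccl5 and Klrd1 were higher in the larger cluster in both libraries, by log2 1.31, 1.63 and 0.74 in control and 0.46, 0.99 and 0.71 in DKO. The NK receptor Ncr1 was at 914 and 1065 CPM in the smaller cluster. Eomes, a transcription factor of conventional NK cells, had 0 CPM there in control and 32 CPM in DKO, against 249 and 279 CPM in the larger. The smaller cluster made up 11.5% (5.65% to 20.1%) of control and 31.4% (19.1% to 45.9%) of DKO NK-like cells.

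**Figure D2:**
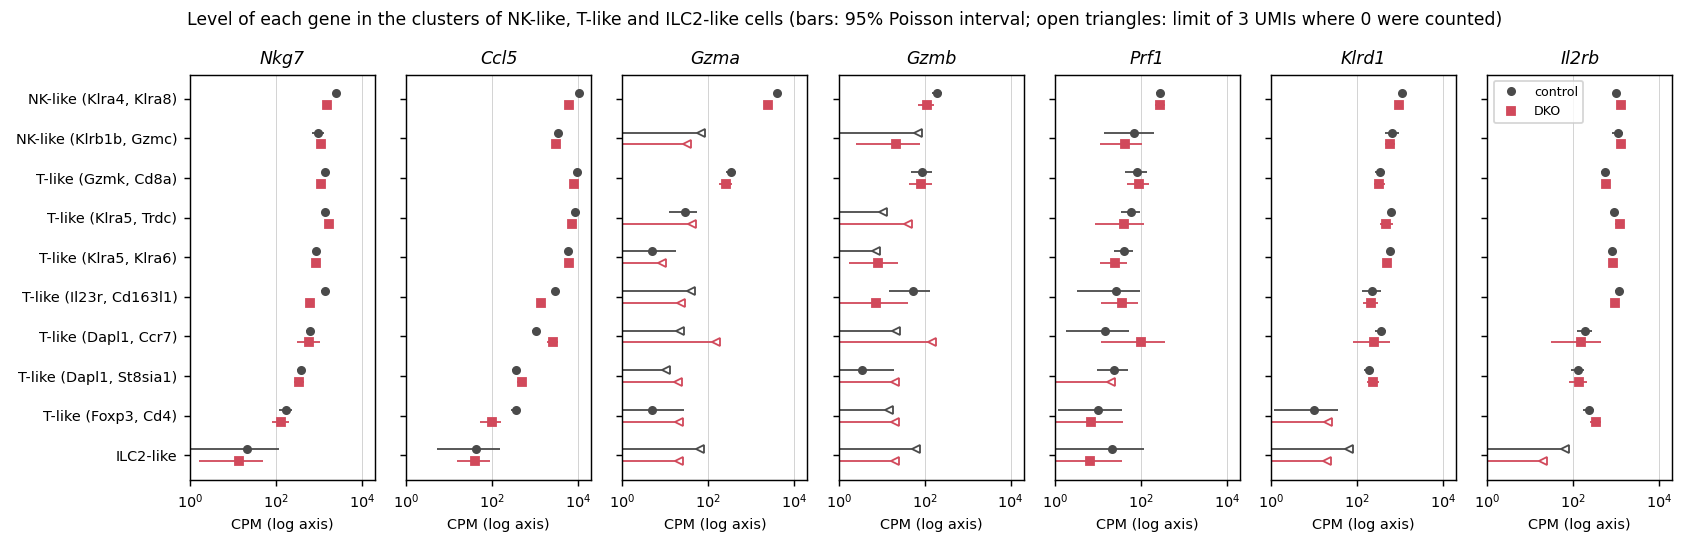
Level of the 7 genes (panels, CPM on a log axis) in the clusters of NK-like, T-like and ILC2-like cells, named by leading genes. Circles are control and squares DKO, bars are 95% Poisson intervals, and open triangles stand at the limit of 3 UMIs where 0 were counted. Gzma is at 3874 and 2370 CPM in the larger NK-like cluster and at 0 UMIs in the smaller, while the Il2rb intervals of these clusters overlap, and Ccl5 falls off down the T-like clusters from 9450 to 350 CPM in control.

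Among T-like cells the 7 genes differed between clusters. The cluster led by Gzmk, Cd8a, Cd8b1 and Cx3cr1, genes of effector CD8 T cells, had Ccl5 at 9450 CPM in 33 control cells and 7953 CPM in 25 DKO cells. It held 55 of the 83 Gzma UMIs of control T-like cells and 36 of 36 in DKO, and 14 of 22 and 12 of 16 Gzmb UMIs. Gzma rested on few cells. Its 83 control UMIs were in 8 of 411 cells with 41 in a single cell, and its 36 DKO UMIs in 4 of 190 cells with 31 in a single cell.

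Clusters led by Klra5 with Trdc or Klra6, the first a T cell receptor delta gene, had Ccl5 at 8538 and 5768 CPM in control and 7295 and 6082 CPM in DKO, with 8 and 2 Gzma UMIs in control and 0 in DKO. The cluster led by Il23r and Cd163l1, genes of interleukin-17-producing gamma delta T cells, had Il2rb at 1188 and 960 CPM and Ccl5 at 2870 and 1380 CPM. A cluster of 15 cells, found in control alone and led by the interferon-induced genes Cxcl10, Ifit1, Ifit3 and Isg15, had Ccl5 at 4427 CPM. Of the clusters led by Dapl1 and Ccr7, the latter a homing receptor of naive T cells, the one of 97 cells had Ccl5 at 350 and 488 CPM. The cluster led by Foxp3 and Ctla4, genes of regulatory T cells, had Ccl5 at 352 and 97 CPM (71 and 14 UMIs) and Klrd1 at 2 and 0 UMIs, while Il2rb was at 233 and 333 CPM. ILC2-like cells had 0 UMIs of Klrd1 and Il2rb in both libraries and 1 and 2 of Nkg7.

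Between the libraries, NK-like cells had less Gzma, Gzmb, Nkg7, Ccl5 and Klrd1 and more Il2rb in DKO. Gzma was at 3382 CPM in control and 1619 CPM (1479 to 1770) in DKO, a log2 difference of -1.06 (-1.22 to -0.91). Ccl5 was at 9468 and 5116 CPM (log2 -0.89, -0.98 to -0.80), Nkg7 at 2242 and 1396 CPM (log2 -0.68, -0.86 to -0.51) and Gzmb at 168 and 83.5 CPM (log2 -0.98, -1.75 to -0.31). Klrd1 was at 1079 and 838 CPM (log2 -0.36, -0.60 to -0.13). Prf1 was at 252 and 207 CPM with an interval that included 0 (log2 -0.28, -0.78 to 0.20). Il2rb went the other way, at 989 CPM in control and 1299 CPM in DKO (log2 0.39, 0.18 to 0.61).

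Of the 7 genes, 5 had intervals below 0, against 6.5% of the 7230 genes of at least 20 CPM in NK-like cells, and 4 were lower by at least 1.5-fold, against 14.8%. With the minimum at 100 CPM those shares were 14.2% and 9.8% of 2102 genes. Il2rb was 1 of the 10.5% of genes with an interval above 0. The median over the 7 genes was -0.68, and over all genes 0.14. Ccl5 and Nkg7 were not lower in NK-like cells alone. They were at log2 -2.03 and -1.47 in late erythroid-like and -1.26 and -0.40 in neutrophil-like cells, with intervals below 0. In late erythroid-like cells Ccl5 had 52 and 16 UMIs (1.84 and 0.43 CPM) and Nkg7 71 and 33 (2.52 and 0.90 CPM). In neutrophil-like cells Ccl5 had 31 and 13 UMIs, and Nkg7 was at 41.3 and 31.2 CPM. All these levels lay below the empty droplets of control (60.6 CPM for Ccl5, 89.8 for Nkg7). Free RNA of DKO was not measured, and its part in these differences was not tested. In cKit+ progenitor-like cells Nkg7 was at 0.05 with an interval that included 0. Neither gene had an interval above 0 in any class compared, though Ccl5 had such an interval in a cluster of T-like cells given below. All these differences compare 1 library with another and cannot be told apart from differences between mice or preparations.

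Several values moved with this comparison. The smaller NK-like cluster, which had no Gzma, was a larger share of DKO cells. Within the larger cluster alone the log2 difference was -0.71 (-0.86 to -0.55) for Gzma, -0.77 (-0.87 to -0.68) for Ccl5, -0.66 (-0.86 to -0.47) for Nkg7, -0.74 (-1.54 to -0.06) for Gzmb, 0.03 (-0.49 to 0.52) for Prf1, -0.25 (-0.51 to 0.01) for Klrd1 and 0.41 (0.17 to 0.66) for Il2rb. Leaving the smaller cluster out, a choice made after seeing the data, thus left Klrd1 with an interval that included 0 and moved Prf1 from -0.28 to 0.03, while the other 5 genes stayed on the same side of 0. The larger cluster need not be uniform. At resolution 1.5, NK-like cells with Klra4 and Klra8 among their leading genes formed a cluster of 33 control and 28 DKO cells and another of 44 and 7. The part of such a difference in make-up was not tested. Depth was higher in DKO NK-like cells, and neutrophil markers summed to 1259 and 387 CPM and late erythroid markers to 2927 and 1219 CPM in control and DKO, whose part in the result was not tested. When NK cells were instead taken by a marker gate of 129 and 63 cells, of which 29.5% and 25.4% lay outside the lymphoid clusters, Klrd1 was at log2 0.11 and the median at -0.14.

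In T-like cells the estimates lay closer to 0, though not when cells were taken by marker gates, where the median over the 7 genes was -0.92 in T and -0.14 in NK cells and Il2rb in T cells turned to -0.80. In T-like cells Nkg7 was at 827 CPM in control and 732 in DKO (log2 -0.18, -0.31 to -0.05), Ccl5 at 4391 and 4086 CPM (log2 -0.10, -0.16 to -0.05), Klrd1 at 377 and 327 CPM (log2 -0.20, -0.40 to -0.01) and Il2rb at 565 and 663 CPM (log2 0.23, 0.08 to 0.37). Gzma, Gzmb and Prf1 had intervals that included 0, with 83 and 36, 22 and 16, and 61 and 33 UMIs. Intervals lay below 0 for 3 of 7 genes against 8.8% of 6611 genes, and above 0 for Il2rb against 17.9%. With the minimum at 100 CPM, which these genes all passed, the shares were 17.7% and 34.3% of 1802 genes. None of the 7 estimates reached 1.5-fold, which 5.34% of genes did downward and 11.9% upward, and the one nearest to it was Gzma at log2 -0.50 (-1.13 to 0.06). In T-like cells thinned to 1500 UMIs the median over the 7 genes turned from -0.18 to 0.41. Nkg7, Ccl5 and Klrd1 nevertheless stayed below 0 there and under all 11 alternatives that gave them. In the cluster led by Il23r and Cd163l1 Ccl5 was at log2 -1.05 (-1.35 to -0.77) and Nkg7 at -1.13 (-1.56 to -0.70) in 23 control and 30 DKO cells. In the cluster led by Foxp3 and Ctla4 Ccl5 was at -1.78 (-2.80 to -1.02, 71 and 14 UMIs) in 69 and 37 cells, and Nkg7 at -0.33. The other T-like clusters compared differed less or went the other way. Ccl5 was at 0.48 (0.03 to 0.93) in the Dapl1 cluster of 97 cells and 0.08 in the Klra5 and Klra6 cluster. It was at -0.22 in the Klra5 and Trdc cluster and -0.25 in the Gzmk and Cd8a cluster. In the same order Nkg7 was at -0.12, 0.01, 0.31 and -0.33.

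**Figure D3:**
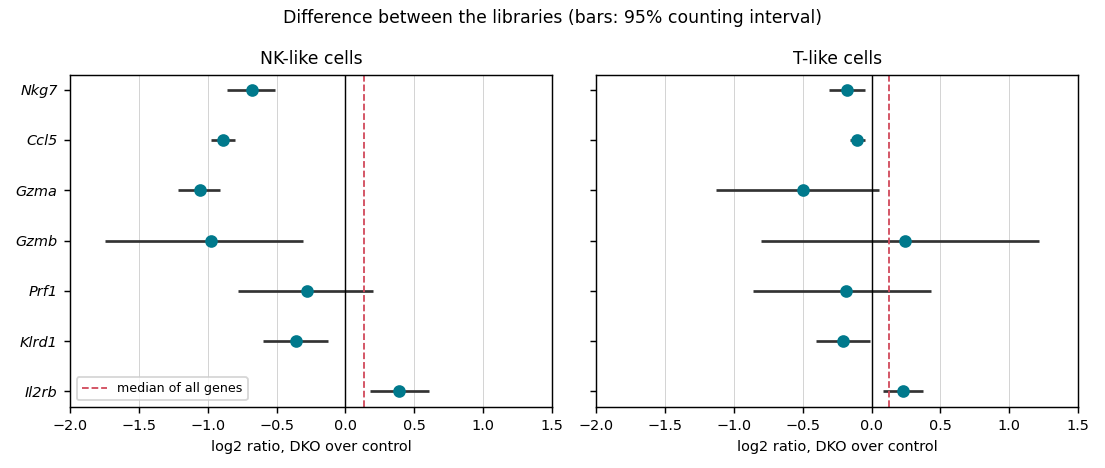
Log2 ratio of CPM in DKO over control for each of the 7 genes in NK-like and T-like cells, with 95% counting intervals and 1 library per genotype. The dashed line is the median of all genes of at least 20 CPM (0.14 and 0.13). In NK-like cells Gzma (-1.06), Gzmb (-0.98), Ccl5 (-0.89) and Nkg7 (-0.68) lie left of 0 and Il2rb (0.39) right of it, while in T-like cells all 7 estimates lie between -0.50 and 0.25.

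Where the transcripts of each gene were in the marrow depended on the gene. NK-like cells, 0.465% of control and 0.372% of DKO cells, held 85.3% of all Gzma UMIs in control and 87.2% in DKO. T-like cells held the largest part of Ccl5 (54.4% and 64.7%) and Il2rb (58.4% and 56.0%). Prf1 was shared between NK-like (43.5% and 55.9%) and T-like cells (30.5% and 29.7%). For Nkg7, in contrast, 81.7% and 81.2% of 14404 and 7128 UMIs lay outside the lymphoid clusters, and for Klrd1 46.6% and 38.2% of 2339 and 1097 UMIs.

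**Figure D4:**
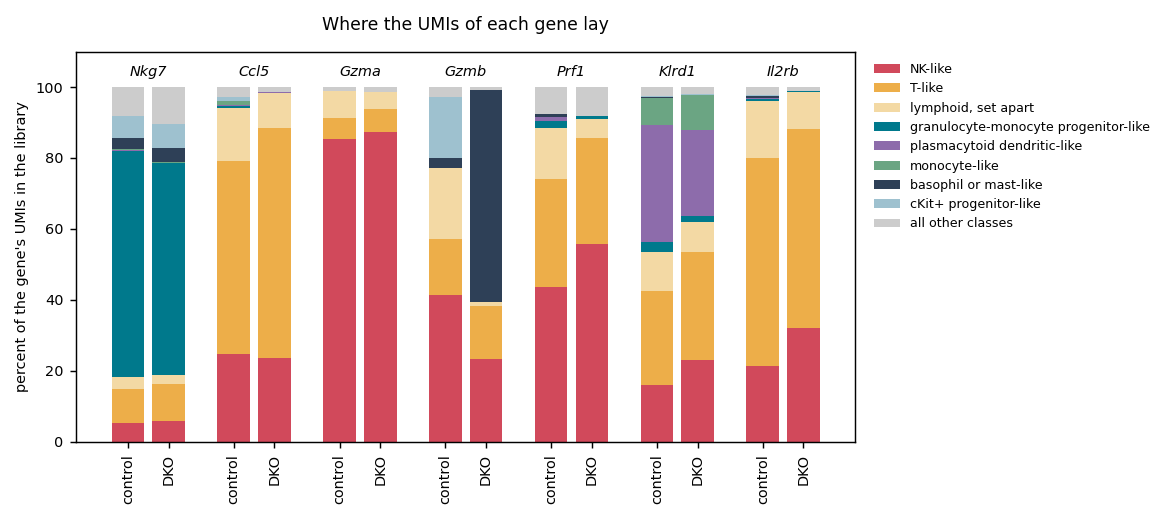
Percent of all UMIs of each gene held by each group of cells, in control and DKO, as stacked bars from 0 to 100%. Gzma is mostly in NK-like cells (85.3% and 87.2%), Ccl5 and Il2rb mostly in T-like cells, and Nkg7 mostly in granulocyte-monocyte progenitor-like cells (63.7% and 59.9%).

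Most Nkg7 transcripts were in myeloid progenitors. Granulocyte-monocyte progenitor-like cells held 9170 Nkg7 UMIs in control, 63.7% of all, and 4269 in DKO, 59.9%. Of these, the cluster led by Elane, Prtn3 and Ms4a3, genes of the early neutrophil granule, was at 1341 CPM (1309 to 1374) in control and 1090 CPM (1049 to 1131) in DKO, with a UMI in 89.4% of 283 and 88.6% of 114 cells. The cluster led by F13a1, a monocyte-side gene, was at 172 and 189 CPM. Over the whole class the log2 difference between DKO and control was -0.21 (-0.26 to -0.16). Granulocyte-monocyte progenitor-like cells that also carried a lymphoid marker UMI held 2.84% and 4.17% of the Nkg7 UMIs.

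Elane marks promyelocyte-stage cells, and Fcnb, Ltf and Mmp8 successively later neutrophil stages. In that order Nkg7 was highest in the Elane cluster and lower in each later one. It was at 227 and 236 CPM in cKit+ progenitor-like cells, and neutrophil-like cells led by Fcnb and Chil3 were at 108 and 92.9 CPM, those led by Ltf and Ngp at 26.4 and 25.8 CPM, and those led by Mmp8 or Retnlg at between 1.27 and 3.12 CPM. Basophil or mast-like cells were at 460 and 362 CPM, in 51.2% and 48.5% of cells. Gzma, Gzmb and Prf1 did not share this pattern, with 1, 0 and 4 UMIs in control granulocyte-monocyte progenitor-like cells. Cst7, from the pathway list of granule proteins and their processing, was among the 10 leading genes of the Elane cluster. The neighbouring F13a1 and cKit+ levels were apart by more than their intervals in both libraries.

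**Figure D5:**
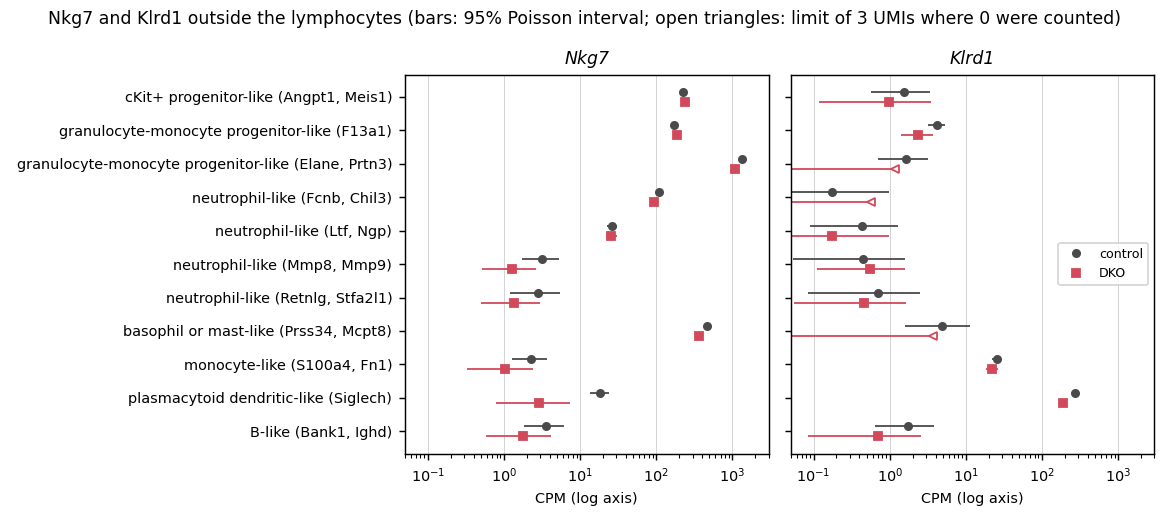
Level of Nkg7 (left) and Klrd1 (right) in CPM on a log axis in clusters outside the lymphocytes, with control as circles, DKO as squares, 95% Poisson intervals as bars, and open triangles at the limit of 3 UMIs where 0 were counted. Nkg7 peaks in the cluster led by Elane and Prtn3 (1341 and 1090 CPM) and is near 1 to 3 CPM in the latest neutrophil-like cells, and Klrd1 stands out in plasmacytoid dendritic-like cells.

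Klrd1 had a second site in dendritic cells. Plasmacytoid dendritic-like cells held 771 Klrd1 UMIs in control (268 CPM, 249 to 288) and 266 in DKO (191 CPM, 168 to 215), in 63.2% and 65.4% of cells and with at most 13 and 10 UMIs in a cell. Cells with a lymphoid marker UMI held only 1.17% and 2.26% of them. The log2 difference between the libraries was -0.49 (-0.70 to -0.29). Monocyte-like cells held a further 180 and 109 UMIs, in 67 of 948 and 31 of 498 cells. Those cells had conventional dendritic cell markers at 1304 and 1340 CPM, against 125 and 112 CPM in monocyte-like cells without Klrd1, NK markers at 163 and 142 CPM (2 and 7 of 10 at 0) against 13.4 and 9.23 CPM, and T markers at 12.9 and 0 CPM. The part of other cell types in these values was not tested.

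Gzmb outside the lymphocytes rested on a handful of cells. In DKO, basophil or mast-like cells had 64 Gzmb UMIs in 7 of 66 cells, and 2 of them held 32 and 26. In control the class had 4 UMIs in 4 of 121 cells. The 2 high DKO cells had 1 and 1 UMIs of Kit, 10 and 30 of Cpa3, 12 and 10 of Gata2 and 2 and 2 of Cma1, a mast cell chymase, with 0 and 7 of Mcpt8 and 0 of Prss34, both basophil proteases. In control, cKit+ progenitor-like cells had 24 Gzmb UMIs in 4 cells (12, 6, 4 and 2), and in DKO 0, so the level was at least 4.29-fold higher in control. Those 4 cells had 15, 5, 4 and 0 UMIs of Cpa3 and 6, 1, 2 and 1 of Gata2. The cells with the most Gzmb outside the lymphocytes thus lay in different classes in the 2 libraries. Cpa3 and Gata2 were also among the leading genes of the basophil or mast-like cluster, which held cells of both libraries.

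Ccl5 outside the lymphoid clusters was 5.88% of its UMIs in control and 1.58% in DKO. In control 16 cells had at least 10 Ccl5 UMIs, 476 in all, and 11 of the 16 also had a lymphoid marker UMI. In DKO 1 such cell was found, with 13 UMIs and no lymphoid marker. Empty droplets of the control held Ccl5 at 60.6 CPM and Nkg7 at 89.8 CPM, and the other 5 genes at between 1.23 and 11.8 CPM. From the hemoglobin UMIs of control NK-like and T-like cells, free RNA was estimated to account for at most 0.447% of any of the 7 genes' UMIs there. The DKO file held called cells only, so its free RNA was not measured.

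Across 17 cell classes in both libraries (34 points), the genes most like the mean of the 7 in log2(CPM + 5) were Xcl1 (Pearson's r = 0.978), Klre1 (0.978), Klrb1c (0.974), Klrc2 (0.970) and Klra7 (0.967), among 4403 genes. Klre1 and Klrb1c were used as NK markers to name the classes, and the classes share libraries and depth, so r is a description. The closest single gene was Ncr1 for Gzma (0.993, also a marker), Sh2d1a for Il2rb (0.993) and Ccl5 (0.948), Cd160 for Prf1 (0.949), Cst7 for Nkg7 (0.921) and Il18r1 for Gzmb (0.846). Among the 7, Ccl5 and Il2rb were most alike (0.946) and Nkg7 and Klrd1 least (0.507).

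Of 41 other genes of the cytotoxic pathway, 40 reached 20 CPM in NK-like cells, where 7 had intervals above 0, against 10.5% of all genes, and 5 below, against 6.5%, with a median log2 difference of 0.14, the same as over all genes. Genes of granule release stood higher in DKO in 3 of 5 cases. Rab27a, the small GTPase that docks granules, was at log2 1.16 (33 and 65 UMIs) and Lyst, a regulator of granule size, at 0.74 (102 and 148 UMIs). Stx11, a fusion protein, was the third. Of 6 secreted or surface ligands, 3 chemokines had intervals below 0: Ccl3, Ccl4 and Xcl1. Ccl4 was at log2 -1.30 (67 and 23 UMIs).

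The receptor adaptors Tyrobp and Fcer1g had intervals below 0 and Hcst above it, and of the interleukin receptor list Jak1 stood above 0. Granule proteins had Gzmc above 0 (3 and 12 UMIs) and none below, with Ctsc at 0.49, Cst7 at -0.44 and Lamp1 at -0.70, whose intervals included 0. Gzmc was among the leading genes of the smaller NK-like cluster, which was a larger share of NK-like cells in DKO. None of the 3 granzyme inhibitors had an interval away from 0, and of 6 transcription factors Id2 alone did, above it. In T-like cells 8 of the 34 genes that reached 20 CPM had intervals above 0, against 17.9% of all genes, and 6 below, against 8.8%, and the transcription factors accounted for 4 of the 8 (Zeb2, Prdm1, Id2 and Runx3).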

How the data were processed

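Bone marrow cells of 1 control and 1 DKO mouse were profiled on the Chromium 3′ platform. The authors deposited raw UMI counts per gene and barcode, made with Cell Ranger (7.1.0 in the file headers) against mm10, without normalization. The control file held every barcode (1518290) and the DKO file called cells only (14142), so control cells were called here: barcodes above a threshold of 4869.34 UMIs (9663), plus those of at least 500 UMIs that differed from the empty droplets (100 UMIs or fewer) at a false discovery rate of 0.01 (9563). Cells over 20% mitochondrial UMIs (172 control, 215 DKO) and doublets called by Scrublet at a score of 0.225347 (342 and 200) were removed. That score was the automatic threshold of DKO. The automatic threshold of control, 0.193313, would have called 431 control cells.

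Cells were scaled to 10000 UMIs, and 2000 variable genes, 30 principal components and 15 neighbours gave Leiden clusters at resolution 1 (scanpy 1.11.5, leidenalg 0.10.2, igraph 0.11.9, Python 3.11.15). The lymphoid clusters were clustered again. The 7 genes and the 41 other pathway genes did not enter the clustering. A cluster was named from at least 3 markers raised 1.5-fold. Lymphoid clusters were set apart, a rule made after their names were seen, where at least 3 markers of another class were raised against the other lymphoid cells and at least 1 of them was among the 10 leading genes. The smaller NK-like cluster had 4 macrophage markers raised but none among its 10 leading genes and was kept. The 7 genes and the lists were chosen with earlier results of these data known.

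UMIs were summed per class and library and given as CPM with exact Poisson intervals. Shares have Clopper-Pearson intervals, and ratios, with 1 count added to each sum, conditional exact binomial intervals (scipy 1.17.1, numpy 2.4.6, pandas 2.3.3). Cells are not replicates, so no p-values were computed. On simulated counts with 200 genes changed 2-fold, the ratio had the right direction for 95.5% in NK-like cells (6371 genes) and 100% in T-like cells (6126 genes), and 96.2% and 95.8% of intervals covered the truth. That checks the calculation on counts and says nothing of differences between mice, which the intervals leave out. A count of 0 was given a limit of 3 UMIs. Free RNA in a cell was estimated from its hemoglobin UMIs and the empty droplets of control.

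Pathway genes with values were the 3 highest and 3 lowest DKO over control ratios in NK-like cells among genes of at least 100 CPM there; others named within a count were chosen after their values were seen. The likeness of genes used those of at least 100 CPM in some class of each library, and the gene closest to Klrd1 is not reported here. Alternatives numbered 12 as planned and 3 added after seeing the data. No column of either count table was left unused (0). The RefSeq promoter table matched 4 of the 7 genes, and 32158 of 32285 gene IDs were in GENCODE M21. Levels between genes were not compared.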

Additional observations from a re-analysis of the deposited data

Results flagged for a closer look

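Gzmb and Il2rb were the genes whose difference between DKO and control went in opposite directions in different cell classes with counting intervals that excluded 0, and these differences between classes were not tested. Gzmb was at log2 4.06 in basophil or mast-like cells (4 control and 64 DKO UMIs, 58 of the latter in 2 cells), at -3.75 in cKit+ progenitor-like cells (24 and 0 UMIs) and at -0.98 in NK-like cells (58 and 25 UMIs). The 2 high DKO cells and 3 of the 4 control cKit+ progenitor-like cells had both Cpa3 and Gata2 UMIs. Both genes were also among the leading genes of the basophil or mast-like cluster, which held cells of both libraries. Il2rb was at log2 0.23 in T-like cells and 0.39 in NK-like cells. In contrast it was at -1.97 in late erythroid-like cells (11 and 3 UMIs), -3.07 in early erythroid-like cells (11 and 1 UMIs) and -2.64 in basophil or mast-like cells (7 and 0 UMIs), classes with at most 11 UMIs. All 7 basophil or mast-like UMIs were in 2 cells that both had a lymphoid marker UMI, as had 1 of the 8 early erythroid-like cells, with 4 of the 11 UMIs. The control erythroid levels were 0.390 and 0.807 CPM, below the 11.8 CPM of the empty droplets.

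The lymphoid clusters kept out of the comparisons also held the 7 genes, at more than the 182 CPM of the empty droplets of control. Their summed level in control was 3726 CPM in the cluster with late erythroid markers (35 cells), 3655 CPM in that with B cell markers (38 cells) and 2224 CPM in that with neutrophil markers (22 cells). Median UMIs of these cells were 9658, 8785.5 and 11494, against 3810 in T-like cells.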

How the results depend on the processing

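No paired analysis was possible because each genotype was a single library and the labels give no replicate numbers. No library could be left out for the same reason, so every value rests on 1 mouse per genotype. For Gzma, Ccl5 and Nkg7 in NK-like cells the DKO over control ratio was below 0 under all 10 alternatives that gave it, from -1.24 to -0.47 for Gzma, -1.08 to -0.22 for Ccl5 and -0.95 to -0.14 for Nkg7, and Il2rb was above 0 in all 10 (0.23 to 0.92). Klrd1 turned to 0.11 with marker gates, and Prf1 turned in 2 of 10.

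With only cells above the UMI threshold (22 and 17 NK-like, 130 and 60 T-like cells), the NK-like median over the 7 genes was -0.91 in place of -0.68, NK-like over T-like was 1.26 in control and 0.81 in DKO in place of 1.52 and 1.36, the median percent of UMIs held by NK-like and T-like cells was 57.7% and 64.9% in place of 74% and 85.6%, and Ccl5 in NK-like over T-like cells of DKO turned to -0.40. Without the 5% of cells with the highest doublet scores the percent held in control was 84.7%. With marker gates the medians were -0.14 in NK and -0.92 in T cells (main value -0.18), 2.04 and 3.20 for NK over T, and 58.1% and 52.2% for the percent held, and Il2rb in T cells turned to -0.80. The gates took 550 and 351 T cells, of which 38.2% and 63.0% lay outside the lymphoid clusters. Leiden resolution 1.5 gave 1.08 for NK-like over T-like in DKO. In cells thinned to 1500 UMIs the T-like median turned to 0.41, though Nkg7, Ccl5 and Klrd1 stayed below 0, and NK-like over T-like was 1.88 and 1.71. With all UMIs, at least 4 genes were seen in 94.3% and 90.2% of NK-like and 42.8% and 47.4% of T-like cells. The share of all genes lower by 1.5-fold in NK-like cells was 9.8% at a minimum of 100 CPM and 23.5% with none. The cause of these changes was not tested. Of the summary values, 41 recomputed ones stayed within the counting interval and 20 did not, and of the other values 221 stayed and 70 did not. Those other values were for single genes and for the shares of all genes past 1.5-fold. The shares were judged by a ratio of 1.5 in place of an interval. Gzmb in NK-like cells rests on 58 and 25 UMIs, and Gzma in T-like cells on 8 and 4 cells.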
